A study of Arabidopsis thaliana with 24 samples.

Results

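The genotype by light interaction under abscisic acid (ABA) is the difference between the effect of the pifq mutation in light and its effect in darkness, with ABA present in both. Whole Columbia-0 seedlings of Arabidopsis thaliana were used, and the interaction was taken as the log2 ratio of pifq to wild type (WT) in light minus the same ratio in darkness. All 12 libraries labelled ABA were taken, of 24 libraries in the series, and each of the 4 groups held 3 libraries. pifq lacks the functions of 4 PIF genes, PIF1, PIF3, PIF4 and PIF5, and the labels give no alleles for it. The groups were WT dark ABA, pifq dark ABA, WT light ABA and pifq light ABA. Seeds of every group were stratified for 2 days and grown at 22 °C on a nylon mesh over Murashige and Skoog medium with sucrose. Dark seedlings had a light pulse of 2 h, went onto ABA plates at 62 h and were left in darkness for 4 days more. Light seedlings were kept under low white light for 16 h a day, went onto ABA plates at 72 h and were left there for 5 days more. Light differed from darkness in age and time on ABA too, and these cannot be told apart. The labels name no ABA dose. Nothing in the labels says that replicates were separate cultures, so p-values measure the spread between these samples, which may be technical.

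PIF proteins are basic helix-loop-helix transcription factors that bind G-box motifs, build up in darkness and are broken down when light activates the phytochromes. In dark-grown seedlings they drive hypocotyl elongation and hold back chloroplast development, so that pifq seedlings in darkness resemble seedlings in light. ABA is the stress hormone that keeps seeds dormant and slows seedling growth. It is bound by PYR/PYL receptors, which then inhibit clade A PP2C phosphatases and free SnRK2 kinases.

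The 12 ABA libraries held 13722850 to 17309957 counts each. Of 32833 genes in the table, 20828 had enough counts to be tested. Levels are given as CPM, the usual count relative to library size, after TMM (trimmed mean of M-values) scaling, in the order of replicates 1, 2 and 3. CPM is not divided by gene length, so levels are compared between groups and not between genes. After a log2 value, ± gives its standard error, with 3 libraries per group, worked back from that value and the F statistic of its test. It rests on a spread fitted over all 24 libraries, and it is uncertain where a group was close to 0 counts. A gene was called at an adjusted p under 0.05, and adjusted p-values come from the quasi-likelihood test of edgeR, with the Benjamini-Hochberg adjustment over all tested genes. An interaction is written as higher where the ratio of pifq to WT was larger in light than in darkness, and as lower where it was smaller.

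Many genes were called between pifq and WT in darkness and few in light. pifq against WT in darkness was called for 8258 genes (39.6%), 4614 higher (22.2%) and 3644 lower (17.5%). The same comparison in light was called for 267 genes (1.28%), 122 higher (0.586%) and 145 lower (0.696%). With libraries scaled by their totals alone, the light calls were 78 higher and 244 lower. With WT light ABA replicate 3 left out, 100 genes were called in light. The fit took no account of replicate number, although same-numbered light ABA libraries of the genotypes deviated together. In the 12 ABA libraries alone, 95 genes were called in light with no block. With a replicate block within light, 271 were. The median absolute log2 change over all tested genes was 0.308 in darkness and 0.142 in light.

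The interaction itself was called for 3518 genes (16.9%). Of these, 1475 were higher (7.08%) and 2043 were lower (9.81%), and 623 and 979 of them by at least 2-fold. In a fit of the 12 ABA libraries alone, 1288 were higher and 1228 lower. Nearly all of the called genes were called between genotypes in darkness and not called in light. A gene not called in light may still have differed there. Over all tested genes only 1.28% were called in light, so not being called there does not set these genes apart. In darkness 22.2% of all tested genes were higher in pifq and 17.5% lower. The dark and light ratios are part of the interaction, so the shares below follow in part from how the genes were chosen. Of the 1475 genes with a higher interaction, 1408 (95.5%) were lower in pifq than in WT in darkness and 1443 (97.8%) were not called in light. Of the 2043 with a lower interaction, 1926 (94.3%) were higher in pifq in darkness and 1967 (96.3%) were not called in light. The absolute log2 change was larger in darkness for 3303 of the 3518 genes (93.9%), against 73.1% of all tested genes. Only 34 genes were called in both lights in opposite directions, 12 with a higher and 22 with a lower interaction.

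**Figure D1:**
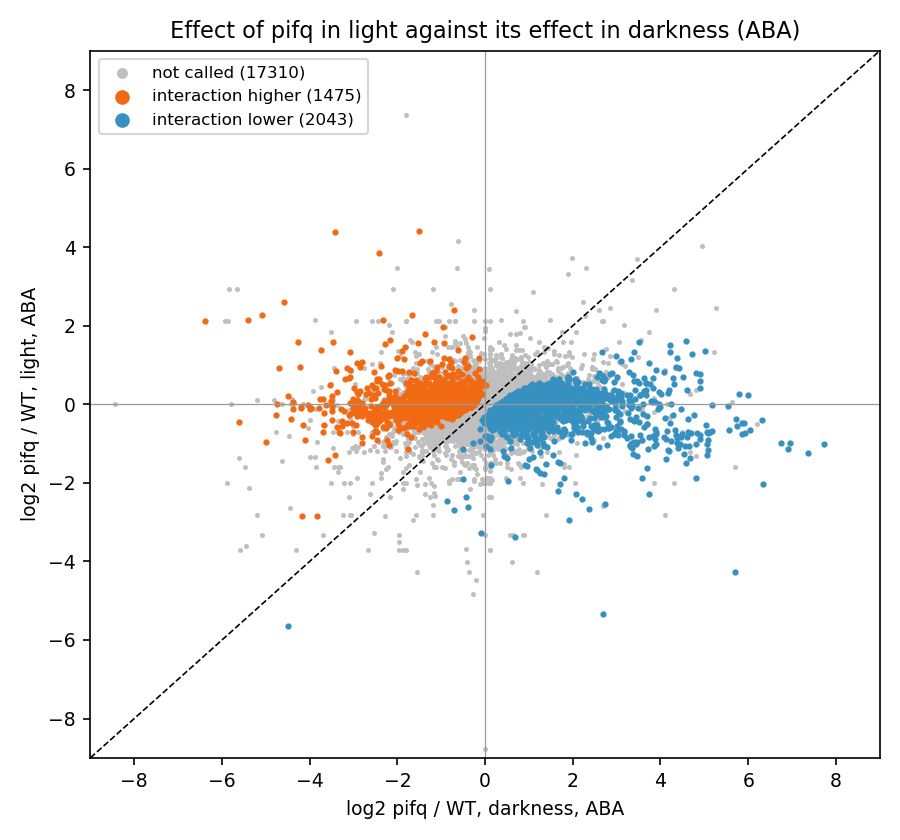
Log2 ratio of pifq to WT under ABA in light (vertical axis) against that in darkness (horizontal axis) for the 20828 tested genes; each point is a gene, orange where the interaction was called higher (1475), blue where it was called lower (2043) and grey where it was not called, and the dashed line marks equal effects. The coloured points spread along the horizontal axis and stay near 0 on the vertical axis.

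The interaction can also be read as the difference between the light responses of pifq and WT. Light against darkness under ABA was called for 62.6% of genes in WT and for 56.1% in pifq. In WT 31.5% of all tested genes rose with light and 31.1% fell, and in pifq 25.9% rose and 30.2% fell. Both responses are part of the interaction, so the counts below follow in part from how the genes were chosen. Of the 2043 genes with a lower interaction, 1629 (79.7%) rose with light in WT. Of those 1629 genes, 736 rose with light in pifq as well, 718 were not called there and 175 fell. Of the 1475 genes with a higher interaction, 1036 (70.2%) fell with light in WT. Of those, 430 also fell in pifq, 481 were not called and 125 rose. A further 313 genes with a lower interaction fell with light in pifq and were not called in WT, and 295 with a higher one rose in pifq alone by the same rule.

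The first principal component of log2 CPM in the 12 libraries held 69.1% of the variance. WT in darkness lay at -113.8 to -93.53 on it, pifq in darkness at -47.54 to -37.91, WT in light at 61.47 to 72.26 and pifq in light at 70.87 to 89.15. The second component held 13.2% and set the dark genotypes apart, WT at 22.33 to 46.2 and pifq at -58.76 to -46.8. All 6 light libraries lay between 0.6656 and 17.47 on it. The genotypes were thus apart in darkness on both components. In light their ranges overlapped on both, although on the first component pifq lay above WT in each of the 3 same-numbered pairs.

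**Figure D2:**
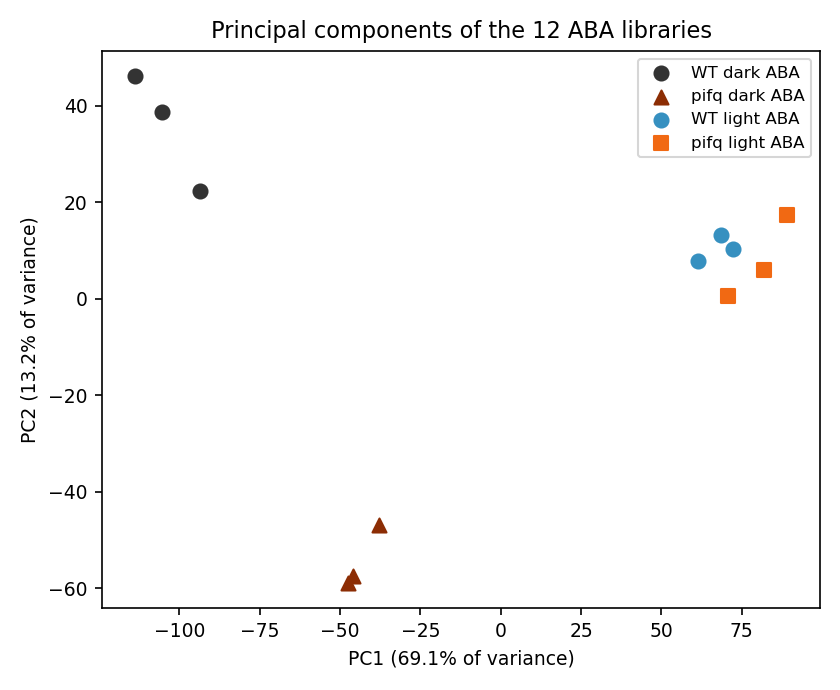
First (horizontal, 69.1% of variance) and second (vertical, 13.2%) principal components of log2 CPM in the 12 ABA libraries; each point is a library and colours mark the 4 groups. WT and pifq in darkness lie far apart, and the 6 light libraries lie together at the right.

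The mutated genes were examined first. PIF3 stood at 100, 107 and 150 CPM in WT in darkness and at 16.6, 20.5 and 24.6 CPM in pifq. In light PIF3 was at 109, 115 and 160 CPM in WT and at 12.8, 10.1 and 16.6 CPM in pifq. PIF5 was at 319, 360 and 419 CPM in WT in light and at 58.4, 53.1 and 57.1 CPM in pifq. In darkness PIF5 was at 47.1, 44.8 and 69.7 CPM in WT and at 34.6, 27.9 and 36.8 CPM in pifq. Within each light, no pifq library reached the lowest WT library for PIF3 or PIF5, as the genotype labels have it. PIF1 was at 52.3, 55 and 57.2 CPM in WT in darkness against 59.8, 62.9 and 76.7 CPM in pifq. In light PIF1 stood at 70.3, 73.9 and 76.6 CPM in WT and 74.6, 98.5 and 89.4 CPM in pifq. An insertion can leave transcript on either side of it, so PIF1 and PIF4, which were not lower in pifq throughout, check no label.

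Among the 8 genes of the PIF family, 3 had a lower and none a higher interaction, with a median log2 of -0.524 against -0.061 over all genes. No higher one had an unadjusted p under 0.05 or was called by DESeq2. The share called was 37.5%, against 16.9% of all tested genes. Of the 3 lower ones, PIF4 and PIF5 are mutated in pifq, so their levels there are not those of intact genes. PIF4, a main driver of elongation in warmth and shade, stood at 66.3, 69.5 and 73.1 CPM in WT in darkness and at 172, 143 and 148 CPM in pifq. In light PIF4 was at 309, 327 and 340 CPM in WT but at 187, 162 and 200 CPM in pifq. The genotypes did not overlap in either light, and their order turned around between them. PIF4 was higher in pifq by 1.15 ± 0.12 in darkness and lower by -0.83 ± 0.12 in light, which gave an interaction of -1.98 ± 0.17 (adjusted p = 1.77e-07). PIF5 had an interaction of -2.00 ± 0.24 (adjusted p = 9.51e-06), with a log2 ratio of -0.70 ± 0.17 in darkness and -2.70 ± 0.17 in light. The gap of PIF5 was thus wider in light, where its level in WT was higher. PIF7, intact in pifq and known for its part in shade responses, was at 0.886, 0.657 and 1.35 CPM in WT in darkness and at 8.06, 4.53 and 6.68 CPM in pifq. In light PIF7 was at 33.7, 17.9 and 28.4 CPM in WT and at 48.9, 29.9 and 46.1 CPM in pifq. These ranges overlapped, with pifq above WT in each of the 3 same-numbered pairs. PIF7 had an interaction of -2.10 ± 0.42 (adjusted p = 0.00158). PIF3 (-0.75 ± 0.35, adjusted p = 0.16) and PIF1 (-0.03 ± 0.14, adjusted p = 0.926) were not called.

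Genes of photosynthesis formed one large group with a lower interaction. Of 45 tested nuclear genes for photosystem subunits, light-harvesting antenna proteins and Rubisco, 39 were called lower and none higher, where 9.81% of all tested genes were called lower. For a higher interaction, 1 had an unadjusted p under 0.05 and DESeq2 called 1, and edgeR called 1 without WT dark ABA replicate 1 or replicate 2. The median log2 interaction of the list was -1.773. In darkness 43 of the 45 were higher in pifq than in WT, as were 22.2% of all tested genes, and 1 was lower, with a median of 2.084. In light none was called; 3 had an unadjusted p under 0.05 and DESeq2 called 1, all higher in pifq, and the median was 0.244. For 41 of the 45, however, the 3 pifq light libraries all lay above the 3 WT light libraries, against 9.14% of all tested genes. Summed over the list, WT in darkness reached 8040 to 12600 CPM, while pifq reached 37000 to 47600 CPM. In light the sums lay between 75600 and 79700 CPM for WT, below the 90400 to 101000 CPM of pifq. pifq in darkness thus stood between dark WT and light WT. With light, all 45 genes rose in WT, by a median log2 of 3.310, and 42 rose in pifq, by a median of 1.319.

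PSBQ-2, a subunit of the oxygen-evolving complex of photosystem II, was at 121, 75.8 and 81.6 CPM in WT in darkness and at 569, 465 and 538 CPM in pifq. In light PSBQ-2 was at 1079, 1152 and 1132 CPM in WT and at 1091, 1137 and 1305 CPM in pifq. The dark genotypes were well apart. The light genotypes overlapped, unlike those of 41 of the 45 genes of the list. PSBQ-2 had an interaction of -2.43 ± 0.24 (adjusted p = 6.59e-07), from a log2 ratio of 2.5 ± 0.18 in darkness and of 0.07 ± 0.16 in light. PSAO, a photosystem I subunit, stood at 107, 48.5 and 73 CPM in dark WT and at 470, 355 and 462 CPM in dark pifq, with an interaction of -2.34 ± 0.26. LHCA3, an antenna protein of photosystem I, was at 410, 268 and 332 CPM in dark WT and at 1794, 1388 and 1688 CPM in dark pifq. Its light levels were 2631, 2995 and 2919 CPM in WT and 3144, 3516 and 3648 CPM in pifq, and LHCA3 had an interaction of -2.00 ± 0.24. PSAN, a further subunit of photosystem I, had -2.03 ± 0.25. Several antenna and Rubisco genes (CAB1 to CAB3, the LHCB2 genes and the RBCS genes) are near copies of each other, and how their reads were divided is uncertain.

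Chlorophyll synthesis genes were called in 47.4%. Of 19 tested genes, 9 had a lower interaction and none a higher one, none of the latter even at an unadjusted p under 0.05 or by DESeq2, and the median was -0.507. In darkness 16 were higher in pifq and 1 was lower. In light 4 were higher and none lower, again with none lower at an unadjusted p under 0.05 or by DESeq2. At an unadjusted p under 0.05, 11 were higher in light, and DESeq2 called 6 higher. For 14 of the 19, the 3 pifq light libraries all lay above the 3 WT light libraries, against 9.14% of all tested genes. Without WT light ABA replicate 3 none was called higher in light, without pifq light ABA replicate 3 none either, and without replicate 1 of WT light ABA 1 was. Leaving out any other light ABA library left 2. PORC, described next, was among those 4 and lost its light call without 1 of 5 of the libraries, at an adjusted p of up to 0.197. HEMA1 encodes glutamyl-tRNA reductase, the entry step of the pathway. It stood at 152, 71.8 and 98.2 CPM in WT in darkness and at 671, 500 and 549 CPM in pifq. In light HEMA1 was at 739, 635 and 631 CPM in WT and at 957, 836 and 782 CPM in pifq. HEMA1 in dark pifq overlapped its level in light WT, with an interaction of -2.06 ± 0.30 (adjusted p = 7.91e-05). The member listed as CAO was matched by symbol to AT2G47450, which is annotated as a chloroplast signal recognition particle component and not as an enzyme of the pathway, and CAO had -1.74 ± 0.24. CRD1, a subunit of the cyclase that closes the fifth ring, had -1.45 ± 0.25. PORC, a light-dependent protochlorophyllide oxidoreductase, was at 21.2, 13.6 and 23 CPM in dark WT and at 68.8, 63.2 and 81.4 CPM in dark pifq, with -1.22 ± 0.22. Of 14 carotenoid genes, 2 were called lower, and 1 when any 1 of 7 ABA libraries was left out. That share of 14.3% called was near the 16.9% of all tested genes.

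Markers of leaf mesophyll moved with these genes. The 5 markers, all detected in every group, summed to 1350 to 1980 CPM of library totals in dark WT, 5920 to 8670 in dark pifq, 14000 to 14400 in light WT and 16400 to 17400 in light pifq. All 5 are photosynthesis genes themselves, and their part in the result was not tested. In whole seedlings, fewer cells of a type and less RNA per cell cannot be told apart, here and in the groups that follow. Among 96 tested chloroplast-encoded genes, which are poorly captured by selection for polyadenylated RNA, the 1 that was called had a lower interaction, and the median was 0.034. With 1 ABA library left out, 0 to 2 of them were called lower and 0 to 3 higher, the 3 without pifq dark ABA replicate 1.

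Root hair genes had the lowest median of the 41 lists. Of 18 tested genes, 13 had a lower interaction and none a higher one, with none higher at an unadjusted p under 0.05 or by DESeq2, and 1 higher without WT light ABA replicate 3. The share called was 72.2%, against 16.9% of all tested genes, and the median log2 was -3.595. In darkness 15 were higher in pifq, as were 22.2% of all tested genes, and 1 was lower, with a median of 3.13. In light none was called by edgeR or DESeq2, 2 had an unadjusted p under 0.05 and were lower in pifq, and the median was -0.608. With light, 14 rose and 1 fell in WT, whereas in pifq none rose and 6 fell.

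PRP3, a proline-rich wall protein of root hairs, was at 1.66, 1.97 and 1.28 CPM in WT in darkness and at 15.2, 48.4 and 39.4 CPM in pifq. In light PRP3 was at 25.7, 15.9 and 47.9 CPM in WT and at 19.3, 13.6 and 16 CPM in pifq. Dark WT alone stood apart, and the other 3 groups overlapped. PRP3 had an interaction of -5.25 ± 0.71 (adjusted p = 5.5e-05), with a log2 ratio of 4.38 ± 0.55 in darkness and of -0.87 ± 0.44 in light. RHS12, a root hair specific gene, was at 0.332, 0.0598 and 0.256 CPM in dark WT and at 2.03, 6.1 and 4.71 CPM in dark pifq. In light RHS12 was at 4.26, 2.19 and 6.7 CPM in WT and at 3, 2.23 and 1.63 CPM in pifq, and its interaction was -5.17 ± 0.72. EXPA18, a root hair expansin, was at 0.0554, 0 and 0.192 CPM in dark WT and at 1.83, 8.7 and 6.55 CPM in dark pifq, with -6.70 ± 0.94. These genes were close to undetected in dark WT, and the sizes of their interactions rest on few counts there.

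PRP1, a relative of PRP3, had the lowest interaction of the genes named by size. It was at 0.554, 0 and 0.128 CPM in WT in darkness and at 6.03, 20.3 and 15.9 CPM in pifq. In light PRP1 was at 10.5, 5.47 and 19.9 CPM in WT and at 8.1, 6.53 and 6.61 CPM in pifq. Dark WT was again below all other libraries, and PRP1 had -6.60 ± 0.92 (adjusted p = 6.46e-05). LRX1, a leucine-rich repeat extensin that shapes root hair walls, was at 1.72, 0.837 and 1.28 CPM in dark WT and at 8.71, 28 and 20 CPM in dark pifq. In light LRX1 was at 13.6, 7.95 and 23.9 CPM in WT and at 8.7, 8.04 and 7.98 CPM in pifq, with an interaction of -4.75 ± 0.68. RHS19, also root hair specific, had -4.90 ± 0.71. The 9 root hair markers that were matched, of 10 listed, summed to 5.74 to 10.5 CPM of library totals in dark WT and to 45.2 to 136 in dark pifq. In light they summed to 42.1 to 112 in WT and 38.1 to 47.5 in pifq, and none was at 0 in any group. Of these markers 8 are members of the list itself, and their part in the result was not tested.

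The 12 lowest interactions among named genes with a mean of at least 5 CPM over the 12 ABA libraries included PRP1, PRP3, LRX1 and RHS19, given above. AGP30, an arabinogalactan protein gene of roots, was at 1.55, 0.0598 and 0.0641 CPM in dark WT and at 19.3, 76 and 12.5 CPM in dark pifq. In light AGP30 was at 4.05, 9.19 and 23.3 CPM in WT and at 7.58, 9.55 and 8.75 CPM in pifq. AGP30 had -6.40 ± 1.16 (adjusted p = 0.00083), and its ratio in darkness, 5.91 ± 0.89, was 9.01 without WT dark ABA replicate 1, the library with the highest level of that group. The extensin genes EXT13 (-5.52 ± 1.11), EXT6 (-4.65 ± 0.89) and EXT12 (-4.47 ± 0.76) code for repeats that they share, so their counts are uncertain. MOP10, of the Ole e 1 family, had -5.01 ± 0.71. PHE1, a MADS-box gene known from the seed, had -4.60 ± 0.80, and CWINV5, a cell wall invertase, had -4.55 ± 0.51. CWINV5 was at 0.277, 0.717 and 0.32 CPM in dark WT, and at 7.79, 10.7 and 7.5 CPM in dark pifq. In light CWINV5 was at 14.3, 7.66 and 10 CPM in WT and at 9.68, 8.68 and 8.32 CPM in pifq. Dark WT was the low group for each of these genes.

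Genes of stomatal development had a lower interaction in 8 of 20 and a higher one in none, with none higher at an unadjusted p under 0.05 or by DESeq2. The share called was 40.0%, against 16.9% of all tested genes, and the median was -0.839. In darkness 16 were higher in pifq, as were 22.2% of all tested genes, and 1 was lower. In light none was called by edgeR or DESeq2, and 2 were lower at an unadjusted p under 0.05. SPCH, which starts the stomatal lineage, was at 1.44, 0.717 and 1.35 CPM in dark WT and at 3.21, 4.17 and 3.96 CPM in dark pifq. In light SPCH was at 3.64, 4.59 and 3.65 CPM in WT and at 5.55, 4.86 and 5.06 CPM in pifq. It was higher in pifq in every library of both lights, called in darkness and not in light, with an interaction of -1.31 ± 0.32 (adjusted p = 0.00663). SCRM2, a partner of SPCH, had -0.94 ± 0.15, and EPF2, a peptide that limits stomatal density, had -2.87 ± 0.57. KCS13, a fatty acid elongase gene also known for its effect on stomatal number, had -1.11 ± 0.21. The 10 markers of guard cells and their lineage summed to 118 to 137 CPM of library totals in dark WT and 169 to 175 in dark pifq. In light they summed to 134 to 144 and 133 to 155, with none at 0, and their part was not tested.

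**Figure D3:**
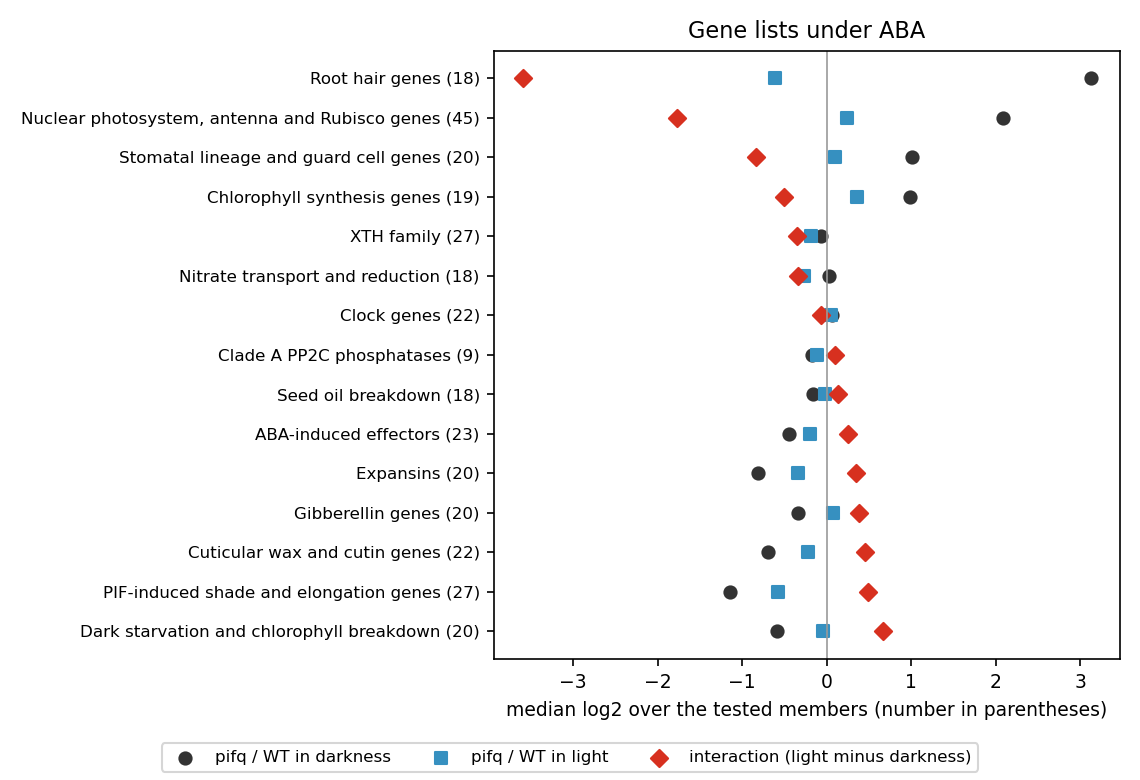
Median log2 ratio of pifq to WT under ABA in darkness (black circles) and in light (blue squares) and median log2 interaction (red diamonds) for 15 of the gene lists, with the number of tested members in parentheses. Root hair (-3.595) and photosystem (-1.773) genes have the lowest interactions of these lists, the dark and light medians differ most there, and clock genes lie near 0 throughout.

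Genes that PIF proteins are known to induce in shade and during elongation had the opposite balance. Of 27 tested, 11 had a higher interaction and 3 a lower one, with a median of 0.486. The share called was 51.9%, against 16.9% of all tested genes. In darkness 22 were lower in pifq, as were 17.5% of all tested genes, and 1 was higher (median -1.144). In light 7 were lower and none higher (median -0.581), with none higher at an unadjusted p under 0.05 or by DESeq2. KDR, also called PRE6, a helix-loop-helix gene that promotes cell elongation, was at 60.9, 76.4 and 66 CPM in WT in darkness and at 7.66, 6.53 and 11 CPM in pifq. In light KDR was at 14.7, 11.3 and 17.3 CPM in WT and at 13.1, 10.5 and 17.1 CPM in pifq. High levels were thus found in dark WT only among these libraries, and KDR had an interaction of 2.92 ± 0.28 (adjusted p = 5.82e-07). PAR2, a helix-loop-helix gene that restrains shade elongation, was at 14.5, 20.1 and 22.6 CPM in dark WT and at 3.8, 3.38 and 4.3 CPM in dark pifq. In light PAR2 was at 2.82 to 3.66 CPM over all 6 libraries, and its interaction was 2.39 ± 0.25.

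IAA19, an auxin-response repressor gene, was at 30.1, 44.3 and 34.3 CPM in WT in darkness and at 0.982, 0.907 and 1.5 CPM in pifq. In light IAA19 was at 1.37, 0.219 and 2.51 CPM in WT and at 0.75, 0.398 and 0.944 CPM in pifq. Only dark WT was high, and IAA19 had an interaction of 4.04 ± 0.76 (adjusted p = 0.000921). ATHB2, a homeodomain gene of the shade response, behaved otherwise. It was at 68.8, 68.3 and 40 CPM in dark WT and at 38.3, 28.7 and 30.8 CPM in dark pifq. In light ATHB2 was at 35.1, 31.4 and 35.2 CPM in WT but at 6.6, 4.86 and 6.95 CPM in pifq. It was lower in pifq in both lights and more so in light, with an interaction of -1.61 ± 0.24 (adjusted p = 8.25e-05). YUC9, a flavin monooxygenase gene of auxin synthesis, was at 0.997, 0.418 and 0.961 CPM in dark WT and at 8.12, 5.86 and 9.89 CPM in dark pifq, with -4.38 ± 0.67. HFR1, a PIF-induced helix-loop-helix gene that restrains PIF proteins, was lower in pifq by -3.83 ± 0.16 in darkness and by -2.85 ± 0.16 in light. Its interaction was 0.98 ± 0.22 (adjusted p = 0.00421).

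Among growth-related helix-loop-helix genes, 6 of 19 had a higher interaction and none a lower one; 1 was lower at an unadjusted p under 0.05, 1 was called lower by DESeq2, and 1 by edgeR without WT dark ABA replicate 1, pifq dark ABA replicate 1 or pifq light ABA replicate 2. PRE1, a brassinosteroid- and gibberellin-induced member, was at 2.6, 6.16 and 5.19 CPM in dark WT and at 0.589, 0.483 and 0.818 CPM in dark pifq, and had 2.71 ± 0.46. IBH1, which counteracts the PRE proteins, went the same way at 2.07 ± 0.29. Expansins, which loosen cell walls, had a higher interaction in 8 of 20 and a lower one in 3. The share called was 55.0% for expansins and 31.6% for the helix-loop-helix genes, against 16.9% of all tested genes. EXPA8 was at 115, 195 and 183 CPM in dark WT and at 15.8, 11.4 and 18.6 CPM in dark pifq. In light EXPA8 was at 30.2, 27.3 and 42.2 CPM in WT and at 10.7, 13.1 and 17.2 CPM in pifq. It was lower in every pifq library of both lights and by more in darkness, with an interaction of 2.15 ± 0.30 (adjusted p = 6.5e-05). EXPA9 (1.81 ± 0.29) and EXP3 (1.14 ± 0.18) had higher interactions too, and the root hair gene EXPA18 was among the 3 lower ones.

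XTH genes, whose enzymes cut and rejoin xyloglucan, were split, with 7 higher and 11 lower of 27. The share called was 66.7%, against 16.9% of all tested genes. Without pifq light ABA replicate 3 the higher ones were 4. XTH7 was at 24.8, 29.3 and 29.6 CPM in dark WT and at 174, 157 and 153 CPM in dark pifq. In light XTH7 was at 560, 507 and 591 CPM in WT and at 570, 516 and 651 CPM in pifq. Its interaction was -2.47 ± 0.23 (adjusted p = 4.72e-07), and that of XTH6 was -3.74 ± 0.50. XTH30 was at 177, 258 and 208 CPM in dark WT and at 69.4, 68.8 and 80.7 CPM in dark pifq, with an interaction of 1.37 ± 0.18. Members of 1 family thus moved in both directions. XTH13 had no count in dark WT, and no size is given for it. SAUR genes, which promote cell expansion, gave 5 higher and 8 lower of 62, a share of 21.0% called, near the 16.9% of all tested genes. The higher ones were 3 without WT dark ABA replicate 2 and 3 without WT light ABA replicate 1. SAUR16 was at 6.15, 10.4 and 11.1 CPM in dark WT and at 1.38, 0.907 and 1.09 CPM in dark pifq, with 2.8 ± 0.39. SAUR41 was at 2.49, 1.85 and 1.54 CPM in dark WT and at 11.7, 6.16 and 7.16 CPM in dark pifq, with -1.54 ± 0.36.

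The 12 highest interactions among named genes with a mean of at least 5 CPM over the 12 ABA libraries belonged to genes of varied function. A high level in dark WT alone could meet that mean, as for PDC3 and IAA19, so the filter itself favoured such genes. ATPMEPCRD, of the pectin methylesterase family, was at 228, 481 and 408 CPM in WT in darkness and at 4.19, 9 and 9.75 CPM in pifq. In light ATPMEPCRD was at 0.55, 0.583 and 1.45 CPM in WT and at 0.525, 0.876 and 0.429 CPM in pifq. ATPMEPCRD had the highest interaction of these genes, 5.14 ± 0.94 (adjusted p = 0.000845), and its light genotypes overlapped. PME61, another pectin methylesterase gene, was at 22.4, 57.1 and 61.8 CPM in dark WT and at 1.83, 2.42 and 2.52 CPM in dark pifq, with 4.26 ± 0.88. BGAL4, a beta-galactosidase gene, was at 288, 350 and 272 CPM in dark WT and at 41.1, 28.2 and 17.1 CPM in dark pifq. In light BGAL4 was at 39.4, 60.4 and 47.3 CPM in WT and at 66.1, 100 and 99.7 CPM in pifq. The light genotypes did not overlap, but pifq against WT in light was not called (0.86 ± 0.25, adjusted p = 0.11), and the interaction was 4.25 ± 0.36 (adjusted p = 3.04e-07). Over all genes, the 3 pifq libraries lay above the 3 WT libraries in light for 9.14% and below them for 8.81%.

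Others of the 12 were PDC3, a pyruvate decarboxylase gene of fermentation, with 4.76 ± 0.91, and CEL2, an endoglucanase gene, with 4.13 ± 0.66. PDC3 was at 19, 32.9 and 26.7 CPM in dark WT and at no more than 1.39 CPM in any other library. WSD1, which makes wax esters, was at 27, 50.4 and 33.6 CPM in dark WT and at 2.16, 1.69 and 1.3 CPM in dark pifq, with 4.04 ± 0.58. PRP2, a proline-rich protein gene, was at 344, 696 and 720 CPM in dark WT and at 37.1, 66.5 and 54 CPM in dark pifq. In light PRP2 was at 229, 194 and 241 CPM in WT and at 228, 192 and 217 CPM in pifq, so that here dark pifq was the low group. PRP2 had 3.42 ± 0.33 (adjusted p = 1.29e-06). NUDT8, a nudix hydrolase gene, showed the same order with 5.65, 13.4 and 12 CPM in dark WT against 0.851, 0.665 and 0.887 CPM in dark pifq. In light NUDT8 was at 7.01, 11.4 and 9.06 CPM in WT and at 5.85, 10.3 and 7.46 CPM in pifq, and its interaction was 3.46 ± 0.64. MYB10 (3.89 ± 1.00) and OCT1, an organic cation transporter gene (3.69 ± 0.40), completed the set with PP2-A13, which is described below. None of the 12 highest and 12 lowest lost its call when any 1 of the 12 ABA libraries was left out.

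The promoters of the 24 genes with the highest and lowest interactions were searched for CACGTG, the G-box that PIF proteins bind, which reads the same on both strands. The window ran from 250 bases before to 50 bases after the annotated gene start in RefSeq's TAIR10.1. PRP2, PP2-A13, NUDT8 and IAA19, all with a higher interaction, were the 4 of 24 that held it. Their sequences show where it lies. They are printed 5′ to 3′ on the gene's strand up to the base before the start, with the motif in capitals, from chr2:9062094-9062343 (minus strand), chr3:22602566-22602815 (plus), chr5:19183273-19183522 (plus) and chr3:5263751-5264000 (plus).
PRP2: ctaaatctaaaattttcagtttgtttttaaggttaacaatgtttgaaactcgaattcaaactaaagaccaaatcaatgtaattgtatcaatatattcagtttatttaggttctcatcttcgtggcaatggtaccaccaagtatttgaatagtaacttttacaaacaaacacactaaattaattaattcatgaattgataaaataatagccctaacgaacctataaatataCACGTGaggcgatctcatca
PP2-A13: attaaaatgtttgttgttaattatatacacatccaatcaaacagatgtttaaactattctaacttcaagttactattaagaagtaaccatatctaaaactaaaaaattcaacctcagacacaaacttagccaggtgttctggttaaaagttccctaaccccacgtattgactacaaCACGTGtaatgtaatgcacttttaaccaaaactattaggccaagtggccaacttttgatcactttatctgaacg
NUDT8: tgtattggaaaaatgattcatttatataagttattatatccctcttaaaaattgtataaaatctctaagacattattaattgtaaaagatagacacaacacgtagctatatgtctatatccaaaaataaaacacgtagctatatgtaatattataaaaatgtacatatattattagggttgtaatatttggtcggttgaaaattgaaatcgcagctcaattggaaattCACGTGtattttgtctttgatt
IAA19: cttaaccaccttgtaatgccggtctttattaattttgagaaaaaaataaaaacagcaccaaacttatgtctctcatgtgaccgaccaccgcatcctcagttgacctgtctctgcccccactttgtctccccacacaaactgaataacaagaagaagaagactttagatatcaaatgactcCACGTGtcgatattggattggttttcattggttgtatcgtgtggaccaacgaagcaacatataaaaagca
The first base of the motif lay 20, 74, 22 and 70 bases before the start in these genes. Over all tested genes with such a window, 8.97% of 20695 held CACGTG. Among genes with a higher interaction it was 155 of 1473 (10.5%), and among those with a lower one 157 of 2042 (7.69%). CACATG, a second motif bound by PIF proteins, was found on either strand in 13% of all windows, 16.6% of those with a higher and 13.7% of those with a lower interaction. It cannot overlap CACGTG in full, but a window may hold both.

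**Figure D4:**
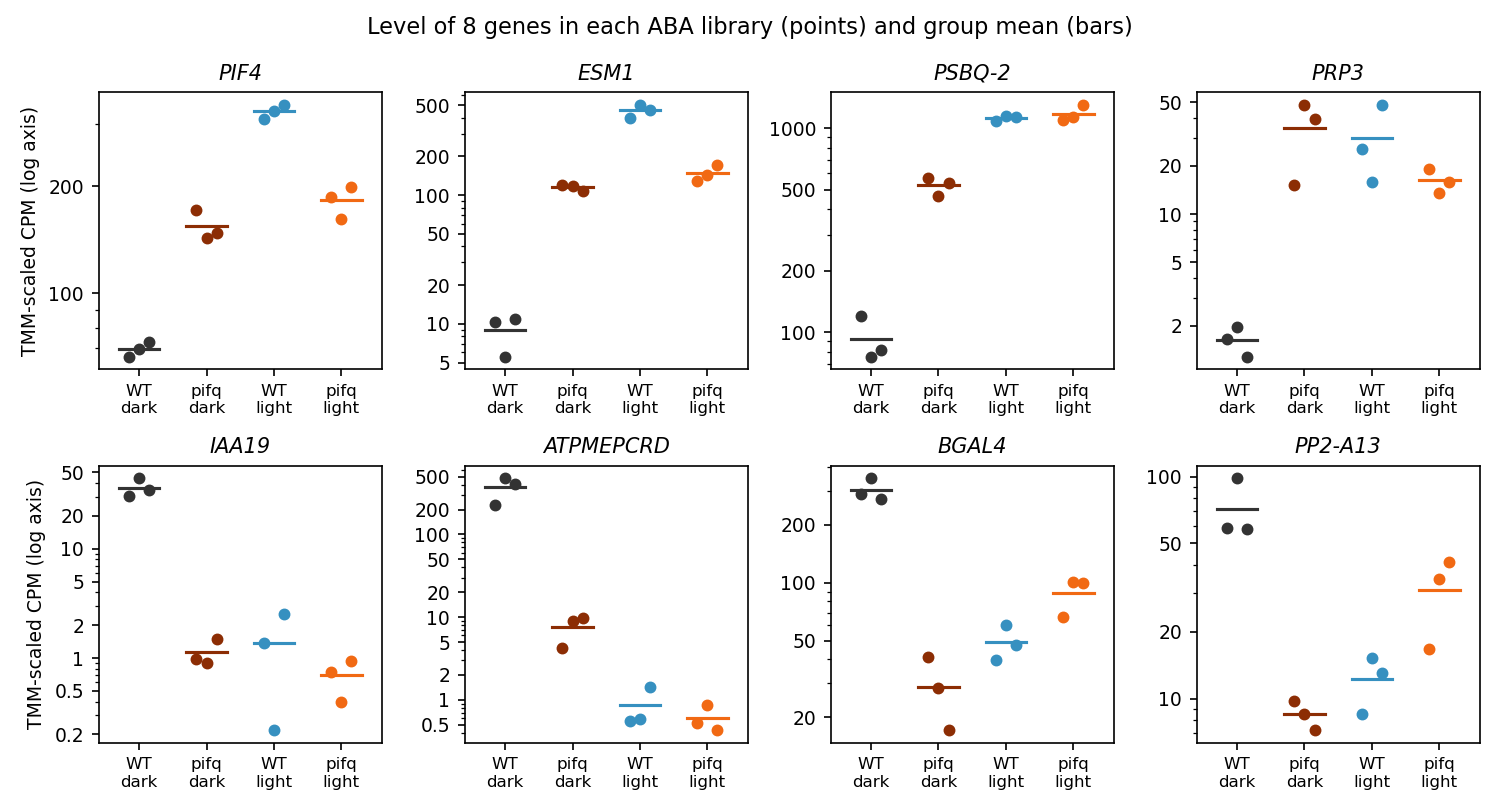
TMM-scaled CPM (log axis) of 8 genes in each of the 12 ABA libraries; points are libraries, horizontal bars are means of 3 libraries, and the groups run from WT dark to pifq light. PIF4 (itself mutated in pifq) and ESM1 change the order of the genotypes between darkness and light. PSBQ-2 and PRP3 are low in dark WT, and IAA19, ATPMEPCRD, BGAL4 and PP2-A13 are high in dark WT.

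Genes called in both lights in opposite directions are those where the mutation raised a transcript in one light and lowered it in the other. ESM1, whose product modifies the breakdown of glucosinolates, was at 10.4, 5.56 and 10.9 CPM in WT in darkness and at 120, 118 and 107 CPM in pifq. In light ESM1 was at 401, 506 and 459 CPM in WT and at 130, 144 and 170 CPM in pifq. WT spanned a wide range between darkness and light while pifq stayed within 107 to 170 CPM in both. ESM1 had an interaction of -5.31 ± 0.29 (adjusted p = 8.89e-10), from 3.69 ± 0.22 in darkness and -1.62 ± 0.19 in light. ELI3-1, of the cinnamyl alcohol dehydrogenase family, was at 13.1, 4.6 and 5.7 CPM in dark WT and at 34.8, 22.3 and 20.1 CPM in dark pifq. In light ELI3-1 was at 203, 210 and 273 CPM in WT and at 51.6, 45.9 and 69.7 CPM in pifq, with an interaction of -3.74 ± 0.38. Its genotypes did not overlap in either light. EFE, an ethylene-forming enzyme gene, was at 209, 181 and 211 CPM in dark WT and at 354, 248 and 305 CPM in dark pifq. In light EFE was at 335, 337 and 372 CPM in WT and at 150, 139 and 195 CPM in pifq, with -1.70 ± 0.23. NIR1, the nitrite reductase of chloroplasts, had -1.22 ± 0.19. With PIF4, described above and itself mutated in pifq, these are the 5 of lowest p in that direction.

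In the other direction, PP2-A13, a phloem lectin-like gene, was at 58.8, 98.4 and 58.2 CPM in WT in darkness and at 9.82, 8.52 and 7.23 CPM in pifq. In light PP2-A13 was at 8.52, 15.3 and 13.1 CPM in WT and at 16.8, 34.5 and 41.1 CPM in pifq. PP2-A13 had 4.39 ± 0.43 (adjusted p = 2.12e-06). BGAL1, a beta-galactosidase gene, was at 428, 420 and 380 CPM in dark WT and at 237, 183 and 141 CPM in dark pifq. In light BGAL1 was at 995, 1203 and 813 CPM in WT and at 1682, 1959 and 1771 CPM in pifq, with an interaction of 1.97 ± 0.21. The genotypes of both genes did not overlap in either light. BXL2, a beta-xylosidase gene, had 3.19 ± 0.33, PCME, a prenylcysteine methylesterase gene, had 1.17 ± 0.14, and TIL, a lipocalin gene, had 0.73 ± 0.14. The light calls of PP2-A13, BXL2, PCME, TIL and NIR1 were near the threshold. Each was lost when 1 library was left out, with an adjusted p of up to 0.185 for PP2-A13 without pifq light ABA replicate 3, 0.0742 for BXL2 without the same library and 0.218 for PCME, also without it. TIL reached 0.146 without that library, and its dark call was lost at 0.0738 without pifq dark ABA replicate 2. NIR1 reached 0.0919 without pifq light ABA replicate 3. No interaction of the 10 genes lost its call when 1 of the 12 ABA libraries was left out.

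Gibberellin genes were called in 20.0% and brassinosteroid genes in 41.2%, against 16.9% of all tested genes. Of 20 gibberellin genes, 4 had a higher interaction and none a lower one; 1 was lower at an unadjusted p under 0.05 and none by DESeq2, and 1 was called lower without WT dark ABA replicate 1, WT light ABA replicate 3, pifq dark ABA replicate 2 or pifq light ABA replicate 1. GA3OX1, which makes active gibberellin, was at 15.4, 41.5 and 34.4 CPM in dark WT and at 6.29, 5.8 and 8.05 CPM in dark pifq. In light GA3OX1 was at 17.7, 12.7 and 19.6 CPM in WT and at 27.2, 20.6 and 35.9 CPM in pifq, with an interaction of 2.92 ± 0.42 (adjusted p = 7.91e-05). GA20OX1, which acts a step earlier, had 4.03 ± 0.84, and RGA1, a DELLA repressor gene, had 0.73 ± 0.14. Of 17 brassinosteroid genes, 6 were higher and 1 lower, and the higher ones were 3 without WT dark ABA replicate 2 and 3 without WT light ABA replicate 2. ROT3, a cytochrome P450 gene of brassinosteroid synthesis, was at 74.9, 85.2 and 66.3 CPM in dark WT, at 30.2, 25.6 and 29.3 CPM in dark pifq and at 29.4 to 37.7 CPM in light, with 1.26 ± 0.15. BES1, a brassinosteroid transcription factor gene, was the lower one at -0.74 ± 0.19.

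The 5 lists of the ABA pathway differed in the share of members called, which was 16.9% over all tested genes. It was 44.4% for receptors, 26.1% for ABA-induced effectors, 11.1% for clade A PP2C phosphatases, 7.69% for SnRK2 kinases with ABF or ABI factors and 7.14% for synthesis and catabolism. Of 9 tested receptor genes, 3 had a higher interaction and 1 a lower one, and 5 were higher without WT light ABA replicate 2. PYL2 was at 0.831, 0.239 and 0.256 CPM in dark WT and at 1.96, 2.48 and 1.71 CPM in dark pifq, with -2.11 ± 0.44 (adjusted p = 0.00198). PYL9 had 0.88 ± 0.22. Of 9 clade A PP2C phosphatases 1 was called, HAI1 with 0.71 ± 0.23 (adjusted p = 0.0355), and that call was lost at up to 0.107 without 1 of 10 of the 12 ABA libraries, the highest without WT dark ABA replicate 3. Of 13 SnRK2 kinase and ABF or ABI factor genes 1 was called, the kinase gene SNRK2-8 with 1.44 ± 0.27. Of 14 genes of ABA synthesis and catabolism 1 was called. It was CYP707A2, an ABA 8'-hydroxylase gene, at 10.6, 9.14 and 13.1 CPM in dark WT and at 25.2, 32.7 and 35.6 CPM in dark pifq. In light CYP707A2 was at 77.7, 87 and 72.6 CPM in WT and at 103, 101 and 83.8 CPM in pifq, with an interaction of -1.23 ± 0.20. Among 23 ABA-induced effector genes, 5 were higher and 1 lower, with a median of 0.254, and the higher ones were 3 without any 1 of 7 of the 12 ABA libraries (WT dark replicates 2 and 3, WT light replicates 1 and 2, pifq dark replicate 2, pifq light replicates 1 and 3). The lower one was lost without any 1 of 6 ABA libraries. MYB2, a drought-induced factor gene, had 1.77 ± 0.38. NAC3 (AT3G15500) was at 28, 37.9 and 53.1 CPM in dark WT and at 7.66, 8.46 and 10 CPM in dark pifq, with 2.53 ± 0.62.

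Seed genes held 1 call. Of 22 genes of seed storage, oil bodies and late embryogenesis, 1 was called (4.55%, against 16.9% of all tested genes). It was OLEO3 with 2.53 ± 0.80 (adjusted p = 0.0362), a call lost without 1 of 7 of the ABA libraries. OLEO3 was at 1.16 without pifq light ABA replicate 2 (adjusted p = 0.298) and at 3.88 without WT light ABA replicate 2, where 6 of the list were called. The 12 seed embryo markers summed to 2190 to 6750 CPM of library totals in dark WT, 3550 to 5870 in dark pifq, 591 to 3050 in light WT and 887 to 4960 in light pifq. Of 18 genes of seed oil breakdown, 3 were called higher, among them SDP1, the main lipase of oil bodies, with 0.95 ± 0.16. That share of 16.7% called was near the 16.9% of all tested genes.

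Genes known to rise in starvation in darkness had a higher interaction in 8 of 20 and a lower one in 1, with a median of 0.667. EXL4 (AT5G09440) was at 235, 352 and 379 CPM in WT in darkness and at 44.1, 39.5 and 43 CPM in pifq. In light EXL4 was at 38.3 to 62.1 CPM over both genotypes, and its interaction was 2.91 ± 0.29 (adjusted p = 1.21e-06). DIN10, a raffinose synthase family gene, was at 601, 404 and 440 CPM in dark WT and at 231, 175 and 160 CPM in dark pifq. In light DIN10 was at 433, 765 and 504 CPM in WT and at 678, 1019 and 809 CPM in pifq, with 1.91 ± 0.28. DIN4 and BCE2, subunits of branched-chain keto acid dehydrogenase, had 1.14 ± 0.16 and 1.01 ± 0.15. Genes of nitrate use went the other way, with 5 lower and none higher of 18, none of the latter at an unadjusted p under 0.05 or by DESeq2. They include NIR1 and UPM1, which makes the siroheme cofactor of nitrite reductase, with -0.92 ± 0.18.

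Light signalling and clock genes were examined as regulators of the same processes. The share called was 32.0% for light signalling genes, 34.6% for B-box genes and 23.1% for photoreceptors, against 16.9% of all tested genes. Of 25 light signalling genes, 3 were higher and 5 lower, and the lower ones were 3 without WT dark ABA replicate 2. HY5, a bZIP factor that promotes photomorphogenesis, was at 24, 16.2 and 28.3 CPM in dark WT and at 8.78, 9.19 and 8.59 CPM in dark pifq. In light HY5 was at 8.68 to 11 CPM in all 6 libraries, with an interaction of 1.54 ± 0.30. GLK1, which activates photosynthesis genes, was at 33.3, 26.2 and 24.8 CPM in dark WT and at 52.5, 48 and 46.3 CPM in dark pifq. In light GLK1 was at 320, 286 and 254 CPM in WT and at 215, 174 and 190 CPM in pifq. Its genotypes did not overlap in either light, in opposite orders, although the light difference was not called (-0.57 ± 0.17, adjusted p = 0.11), and its interaction was -1.37 ± 0.24. Of 26 B-box genes, 4 were higher and 5 lower; the higher ones were 2 without WT dark ABA replicate 2, with the same count without any 1 of 5 other ABA libraries (WT dark replicate 3, WT light replicate 1, pifq dark replicate 3, pifq light replicates 1 and 3). BBX16 had -4.22 ± 0.78. None of 22 clock genes was called by edgeR; 4 had an unadjusted p under 0.05, DESeq2 called 1, and edgeR called 1 higher without WT light ABA replicate 2 and 1 lower without WT dark ABA replicate 3. Of 13 photoreceptor genes 2 were higher (1 without WT light ABA replicate 3) and 1 lower (2 without WT dark or pifq dark ABA replicate 1), the last being the blue light receptor PHOT2 at -1.14 ± 0.26.

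Wax and cutin genes had a higher interaction in 6 of 22 and a lower one in 1; the higher ones were 3 without WT dark ABA replicate 3 and 3 without pifq dark ABA replicate 2. CER1, which makes alkanes, was at 577, 873 and 834 CPM in dark WT and at 252, 249 and 280 CPM in dark pifq. In light CER1 was at 369, 319 and 419 CPM in WT and at 267, 240 and 306 CPM in pifq, with 1.1 ± 0.26. CYP86A4, a cutin hydroxylase gene, had 1.90 ± 0.38. Endodermis genes were split, with 4 higher and 3 lower of 14, and the higher ones ranged from 1 to 7 with 1 ABA library left out (1 without WT dark replicate 2, WT light replicate 1 or pifq light replicate 2, and 7 without WT light replicate 3). CASP5, which builds the Casparian strip, was at 73.1, 146 and 108 CPM in dark WT and at 9.56, 11.6 and 10.4 CPM in dark pifq, with 2.81 ± 0.55. In darkness 4 of the 14 endodermis genes were higher in pifq and 9 lower. The 8 endodermis markers summed to 274 to 460 CPM of library totals in dark WT, 105 to 142 in dark pifq, 76.5 to 101 in light WT and 70 to 76.9 in light pifq, none at 0. Of the 7 markers tested, 4 had a higher interaction and 0 a lower one, so they do not stand for the split list, and their part was not tested. Shoot meristem markers summed to 193 to 233 in dark WT, 127 to 144 in dark pifq, 60.9 to 76.2 in light WT and 50.6 to 74 in light pifq.

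The remaining lists were called in 5.56% (mitochondria-encoded genes) of their members at the fewest and in 4 of 8 (shoot meristem genes) at the most, with 16.9% over all tested genes. Of 20 jasmonate genes, 5 were higher and 2 lower; LOX4, a lipoxygenase gene, had 2.72 ± 0.36, and the higher ones were 2 without WT dark ABA replicate 2 and 2 without pifq light ABA replicate 3. The lower ones were 1 without any 1 of 8 ABA libraries. Aux/IAA genes gave 3 higher and 2 lower of 21, with 1 to 4 and 1 to 2 when 1 ABA library was left out. Auxin synthesis, conjugation and transport gave 3 higher of 24, or 1 without WT dark ABA replicate 2, WT light ABA replicate 2 or pifq dark ABA replicate 3. It gave 5 lower, or 3 without WT light ABA replicate 3, pifq light ABA replicate 1 or pifq light ABA replicate 2. Ethylene genes gave 2 higher and 1 lower of 16, the former 1 or 2 with a library left out. Iron uptake gave 3 and 2 of 21, with ranges of 1 to 5 and 0 to 2. Flavonoids gave 1 and 2 of 16, with ranges of 1 to 2 and 1 to 3. Mitotic genes gave 2 and 1 of 22, with ranges of 1 to 2 and 0 to 1. Heat shock genes gave 3 calls among 15, each of them higher, and 1 without WT light ABA replicate 2, pifq light ABA replicate 2 or pifq light ABA replicate 3. Cellulose synthases and their partners gave 2 lower of 14, with a range of 1 to 3. PP2C.D phosphatases with proton pumps gave 2 lower of 11, or 4 without WT dark ABA replicate 1. Shoot meristem genes gave 4 higher of 8, or 2 without WT dark ABA replicate 2, WT light ABA replicate 3, pifq dark ABA replicate 2 or pifq light ABA replicate 2. Mitochondria-encoded genes gave 2 higher of 36, or 4 without WT dark ABA replicate 3, and the share of counts from mitochondrial genes was 0.1621% to 0.2274% in dark WT, 0.09161% to 0.1336% in dark pifq and 0.03722% to 0.06161% in light.

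The same interaction was taken in the 12 mock libraries, from seedlings moved to plates with ethanol in place of ABA. It was called for 3836 genes (18.4%), 1384 higher (6.64%) and 2452 lower (11.8%). Of the genes with a lower interaction under ABA, 952 (46.6%) were lower in mock as well, 38.8% of the mock list. Of those with a higher interaction, 472 (32.0%) were higher in mock, 34.1% of the mock list. Another 31 genes were higher under ABA and lower in mock, and 18 were lower under ABA and higher in mock. Over the tested genes the interactions with and without ABA had a Pearson correlation of 0.38, as a description across genes that share no library between the 2 values. The difference between the interactions was called for 709 genes (3.40%), 385 higher under ABA (1.85%) and 324 lower (1.56%). Leaving out 1 of the 24 libraries gave 271 higher genes at the fewest and 594 without WT dark ABA replicate 1, and 486 lower genes at the most and 213 without pifq dark mock replicate 2.

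Photosynthesis and root hair genes were compared between ABA and mock. Of the 45 photosynthesis genes, 43 had a lower interaction in mock (median -1.822 against -1.773 under ABA), and none differed between ABA and mock by edgeR or DESeq2, 2 of them at an unadjusted p under 0.05. Of the 18 root hair genes none was called in mock, 1 higher and 1 lower having an unadjusted p under 0.05, with a median of 0.104. For 10 of the 18, against 1.56% of all tested genes, the interaction was lower under ABA than in mock. The median difference was -3.44 against -0.016 over all genes. PRP3 had an interaction of 0.08 in mock and differed by -5.32 ± 0.95 (adjusted p = 0.0046). AGP30 was at 169 ± 5.79 CPM (SD, n = 3) in WT and at 138 ± 33.9 CPM in pifq in dark mock, against 0.558 ± 0.859 and 35.9 ± 34.8 CPM in dark ABA. Its interaction differed by -6.18 ± 1.42 (adjusted p = 0.021), by -9.28 without WT dark ABA replicate 1 and with an adjusted p of 0.0527 without WT dark ABA replicate 3. BGLU34 and BGLU35, myrosinase-like beta-glucosidase genes that are close copies and so uncertain singly, differed by -6.40 ± 1.14 and -6.45 ± 1.27.

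**Figure D5:**
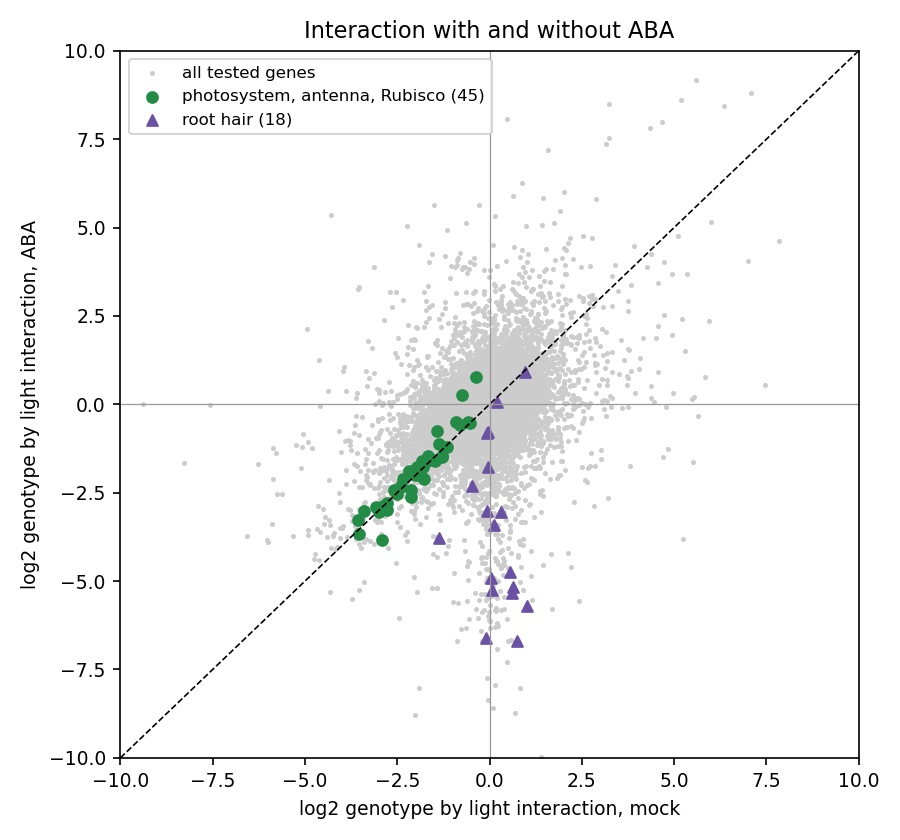
Log2 genotype by light interaction under ABA (vertical axis) against that in mock (horizontal axis) for the 20828 tested genes (grey), with 45 photosystem, antenna and Rubisco genes in green and 18 root hair genes as purple triangles; the dashed line marks equal interactions. The green points follow the line (medians -1.773 and -1.822). Most of the purple ones lie below 0 under ABA, with 0.92 the highest, and their medians are -3.595 under ABA and 0.104 in mock.

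Lists of growth genes were uneven in the difference from mock, which was called higher under ABA for 1.85% of all tested genes and lower for 1.56%. Of the 27 PIF-induced genes, 8 had a higher interaction under ABA than in mock and 1 a lower one, and of the 20 expansins 7 and 3. Of the 27 XTH genes 2 were higher and 4 lower, and of the 62 SAUR genes 3 and 3. EXPA8 was at 141 ± 11.0 CPM (SD, n = 3) in WT and 152 ± 19.3 CPM in pifq in dark mock, and at 164 ± 43.3 and 15.3 ± 3.63 CPM in dark ABA. In light EXPA8 was at 114 ± 8.05 and 31.8 ± 3.51 CPM in mock and at 33.2 ± 7.94 and 13.7 ± 3.25 CPM under ABA. The interaction of EXPA8 was -1.95 in mock and 2.15 under ABA, a difference of 4.1 ± 0.41 (adjusted p = 4.4e-05). In darkness, the low level of EXPA8 in pifq was thus seen with ABA and not in mock. ATPMEPCRD was at 458 ± 64.0 CPM in WT and 181 ± 25.9 CPM in pifq in dark mock, against 372 ± 130 and 7.65 ± 3.02 CPM in dark ABA, with a difference of 5.77 ± 1.01 (adjusted p = 0.0041). PME61 was at 8.48 ± 1.01 CPM in WT and 12.4 ± 3.80 CPM in pifq in dark mock, and at 47.1 ± 21.5 and 2.26 ± 0.371 CPM in dark ABA, with a difference of 5.81 ± 1.08. PRE1 (3.91 ± 0.57), KDR (2.17 ± 0.38) and PAR2 (2.27 ± 0.32) differed in the same direction. IAA19 differed by 3.6 ± 0.83 (adjusted p = 0.02), a call that was lost without pifq light ABA replicate 1 (adjusted p = 0.0573) or replicate 3 (adjusted p = 0.0803). Stomatal genes, 17 of 20 of which were lower in mock against 8 under ABA, differed in 3, all higher under ABA. SCRM2 differed by 1.13 ± 0.21 and KCS13 by 1.5 ± 0.29. ESM1 (-0.98 ± 0.39, adjusted p = 0.18) and PIF4 (0.14 ± 0.24, adjusted p = 0.82) were not called as different between ABA and mock.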

How the data were processed

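The authors deposited 1 table of raw counts per gene for 24 libraries. Per the labels, polyadenylated RNA gave stranded libraries read as pairs on a DNBSEQ system, and per the submitters' processing notes FastQC, STAR, SAMtools, DESeq2 and the TAIR10 build were used; no source used here names the counting program or its strand setting. Counts were fitted with edgeR 4.0.16 (R 4.3.3, limma 3.58.1) with TMM scaling, filterByExpr and a robust quasi-likelihood fit of 8 group means, leaving 16 residual degrees of freedom. The fit took all 24 libraries, and p-values were Benjamini-Hochberg adjusted over 20828 genes. The median biological coefficient of variation was 0.109. The script was tested on simulated data. Interactions of a group with 3 counts or fewer are given no size. Named genes were the 12 highest and 12 lowest called interactions with a mean of at least 5 CPM, the 5 of lowest p in each direction that were called oppositely in both lights, the 3 highest and 3 lowest differences from mock, the 4 members of lowest p of each list, and the 4 mutated genes. Members and lists were chosen with earlier results of these data known, and 31 list symbols matched no gene. Gene names came from RefSeq TAIR10.1. Alternatives were the scaling, the filter, the fit, DESeq2 1.42.0, a replicate block and leaving out each library. Pairing by replicate number was checked from the labels' numbers: deviations of same-numbered WT and pifq light ABA libraries correlated at 0.393, 0.513 and 0.338, so those numbers were taken as pairing, while dark ones correlated at 0.248, 0.0324 and 0.293 and were not. The reported fit held no term for that pairing. Tables were handled with Python 3.11.15, pandas 2.3.3 and numpy 2.4.6.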

Additional observations from a re-analysis of the deposited data

Results flagged for a closer look

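The effect of pifq under ABA differed between light and darkness, by a test of the interaction itself, for 3518 genes, and that interaction differed between ABA and mock for 709 genes. Of the genes called in both lights in opposite directions, the log2 interaction was 4.39 for PP2-A13, 1.97 for BGAL1, 3.19 for BXL2, 1.17 for PCME and 0.73 for TIL. It was -5.31 for ESM1, -1.98 for PIF4 (itself mutated in pifq), -3.74 for ELI3-1, -1.70 for EFE and -1.22 for NIR1. The light calls of PP2-A13, BXL2, PCME, TIL and NIR1, and the dark call of TIL, were lost when single libraries were left out.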

How the results depend on the processing

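The interaction was called for 3466 genes with relative log expression scaling, 3654 with totals alone, 3166 with no filter, 3523 with a filter of 1 CPM, 3531 without the robust fit and 3782 with DESeq2. The 12 ABA libraries alone gave 2516 calls, with 1228 lower. In light they gave 95 calls, 35 higher and 60 lower. DESeq2 gave 495 in light, 298 of them higher. Totals alone gave 78 higher and 244 lower in light. For the difference from mock, DESeq2 gave 1110 calls, 606 higher and 504 lower. With the replicate number as a block, 3728 interactions were called in 24 libraries and 2979 in the 12 ABA libraries, where 96 genes were lower in light. With a replicate block within light only, in the 12 ABA libraries and added after seeing the data, the interaction was called for 3247 genes. In light that block gave 271 calls, against 95 in the same 12 libraries with no block, and 170 of the 267 reported light calls (63.7%) were among them.

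With 1 library left out, the interaction was called for 2532 to 3978 genes, 1073 to 1647 higher and 1459 to 2331 lower. Dark calls were 6293 to 8184, light calls 100 to 197 (27 to 73 higher, 73 to 127 lower) and differences from mock 484 to 1008 (271 to 594 higher, 213 to 486 lower). Of the 3518 genes, 2097 (59.6%) were called with each of the 12 ABA libraries left out in turn. The log2 interaction of PIF1, -0.03 and not called, turned to 0.009 with relative log expression and DESeq2, 0.03 with 12 libraries with and without the replicate block, 0.023 with the block within light, 0.006 without WT dark ABA replicate 1, 0.002 without WT light ABA replicate 3, 0.088 without pifq dark ABA replicate 3 and 0.075 without pifq light ABA replicate 1. Leaving out single ABA libraries gave -0.127 to 0.088 for it. The cause was not tested. Neither other scaling turned the balance of any list.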
